A study of Mus musculus with 24 samples.

Results

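Ifih1, Dhx58, Tlr3, Mavs, Irf3, Irf7, Irf1, Irf9 and Stat2 encode proteins that detect RNA inside the cell or carry the signal towards and away from type I interferon. These 9 genes were taken by symbol from the 41549 genes of the deposited mRNA sequencing table. All 9 had enough reads to enter the test, which covered 15916 genes. The cells were dispersed pancreatic islet cells of wild-type mice, a mixture dominated by insulin-producing β-cells. They were transfected by lipofection with 50 pmol of an antisense oligonucleotide (ASO), either a control (Ctr) or one that blocks the 5' fragment of tRNA-Glu(CTC) (αGlu). They were then exposed for 48 h to 0.5 mM of the saturated fatty acid palmitate (PA) bound to albumin, or to 0.75% bovine serum albumin (BSA) alone, with 1% fetal serum throughout. The groups are called Ctr or αGlu by ASO, followed by BSA or PA, with 6 libraries in each of the 4 groups and 3 of each group in either of 2 batches, as the sample records name them. Cells of all 4 groups carried a transfected ASO, so the level of the 9 genes without transfection was not measured. The study's methods describe C57BL/6NRj mice of 12 to 14 weeks, and the records of the libraries give no age.

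RNA sensors bind double-stranded or otherwise unusual RNA. In the cytosol, MDA5 (encoded by Ifih1) and RIG-I signal through the adaptor MAVS, and LGP2 (Dhx58) tunes MDA5, while TLR3 reads double-stranded RNA in endosomes. The signal leads to phosphorylation of the transcription factors IRF3 and IRF7, which switch on type I interferon genes, and secreted interferon then acts through its receptor on STAT2 and IRF9, which work within the complex called ISGF3. ISGF3 in turn raises transcription of many interferon-stimulated genes, among them Ifih1, Dhx58, Irf7, Irf9 and Stat2 themselves, and MDA5 has been linked to type 1 diabetes through variation in the IFIH1 gene.

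The ASO is shown because each αGlu comparison rests on it. The sequences below were read from the study's list of oligonucleotides, 5′ to 3′, and the capitals in the target mark the 20 of its 21 bases that are the exact reverse complement of the ASO. The 21 bases are the target as listed for the ASO, not the whole fragment, which the study describes as longer in islet cells.
αGlu ASO: taaccactagaccaccaggg
targeted tRNA fragment: tCCCTGGTGGTCTAGTGGTTA
The mRNA libraries do not quantify this fragment, so its level in each library is not given here.

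Between 18214719 and 35001979 counts per library were assigned to genes, which gave 44 to 421 counts per library for Irf7, the lowest in level of the 9 genes, and 38 to 290 for Dhx58. The deposited TPM, levels scaled for transcript length and library size that allow genes to be compared, placed Irf1 first with a median of 30.7 TPM over the 24 libraries. Stat2 (18.9), Irf3 (18.9), Mavs (15.2), Irf9 (12.4), Tlr3 (10.5) and Ifih1 (8.71 TPM) followed, and Dhx58 (2.99) and Irf7 (2.58 TPM) came last. Within Ctr BSA, Irf1 lay above Stat2, and Ifih1 above Dhx58, in every library, while the ranges of all other neighbours in that order overlapped. In αGlu BSA the ranges of all neighbours overlapped, and Irf7 lay above Dhx58, with medians of 4.56 and 3.80 TPM. From here on, levels are CPM, counts relative to library size scaled by trimmed mean of M-values, and they are compared only within a gene.

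**Figure D1:**
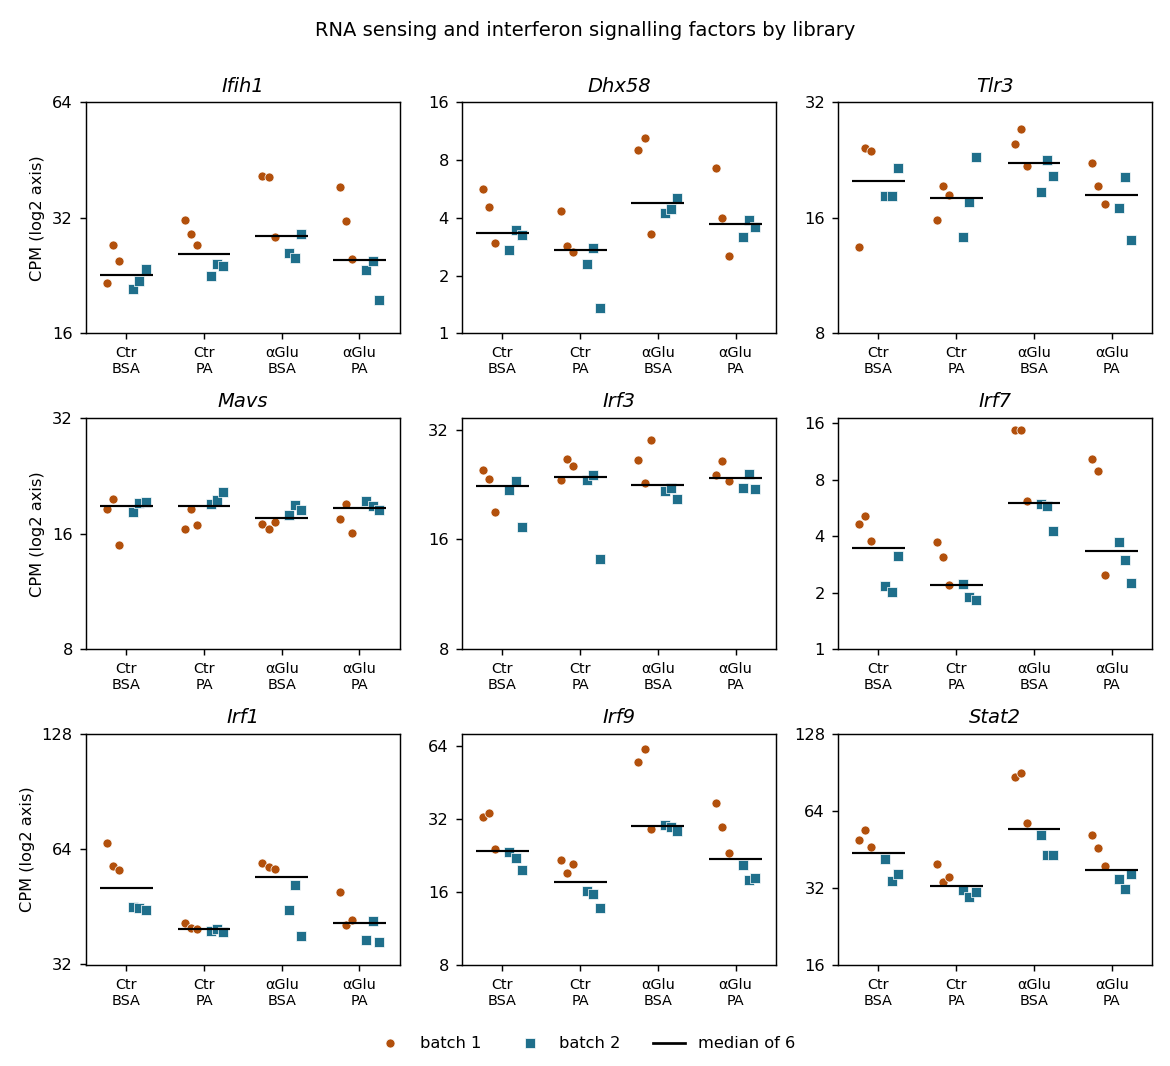
CPM (log2 axis) of the 9 genes in each of the 24 libraries, by group; circles are batch 1, squares batch 2 and bars the median of the 6 libraries of a group. Irf7, Irf9 and Stat2 are highest in αGlu BSA libraries S2 and S6 of batch 1, and Irf1 in Ctr PA (38.8 to 41.1 CPM) lies below Ctr BSA (44.3 to 66.2 CPM).

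Averaged over BSA and PA, Irf7, Irf9 and Stat2 rose in αGlu cells and the other 6 genes did not pass the test. These 3 were among only 9 genes in the whole table that rose in this comparison (0.0565% of those tested), while 29 genes fell. On the log2 scale Irf7 was higher by 1.10 (standard error 0.19, edgeR quasi-likelihood test, adjusted p = 0.0151), a 2.15-fold difference. The difference was 0.50 for Irf9 (0.10, adjusted p = 0.0178) and 0.36 for Stat2 (0.07, adjusted p = 0.0221). The median over the 9 genes was 0.23, against 0.00 over all genes tested. Before adjustment, 5 of the 9 had a p below 0.05 with a higher level in αGlu cells, where 1.34% of all genes did. With the study's own threshold, a fold change above 2 and an unadjusted p below 0.05, only Irf7 would be called, against 0.138% of all genes in that direction. The 9 genes were chosen with earlier results of these data known, so these shares are descriptive.

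These 3 calls depended on particular libraries and on the batch term. The αGlu BSA libraries S2 and S6, both of batch 1, held between them the highest value of their group in 7 of the 9 genes, and αGlu PA library S4 held it in 7 of 9. Batch 1 libraries were also mostly highest in the Ctr groups. In Ctr BSA, S5 was highest in 6 of the 9 genes and S1 in 3, and in Ctr PA S3 was highest in 6. Without S2 and S6, a choice made after seeing the data, the log2 fold changes were 0.95 for Irf7, 0.38 for Irf9 and 0.25 for Stat2, with adjusted p-values of 0.0788, 0.0809 and 0.0804. Within batch 1 alone they were 1.33, 0.62 and 0.49, and within batch 2 alone 0.85, 0.38 and 0.23. None of the 9 was called in either batch alone, where the fit had fewer libraries. Without the batch term the adjusted p-values were 0.142, 0.420 and 0.609. The Stat2 call was also lost without Ctr PA library S7 (adjusted p = 0.0544), Ctr BSA library S9 (0.0585) or αGlu PA library S24 (0.0577). Irf7 and Irf9 kept their calls when any single library was left out. The test of the difference between batches called 0 of the 9 genes and 0% of all genes; it was closest for Stat2, at -0.25 (standard error 0.13, adjusted p = 0.997).

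Among the sensors, Ifih1 and Dhx58 had higher levels in αGlu cells and neither passed the test. In BSA, Ifih1 ranged from 20.9 to 27.1 CPM in Ctr cells (median 22.7) and from 25.2 to 41.1 CPM in αGlu cells (median 28.7). The pooled ranges overlapped, but within each batch the 3 αGlu BSA libraries lay above the 3 Ctr BSA libraries, as they did for 0.163% of all genes. On the log2 scale the αGlu difference was 0.42 in BSA (standard error 0.10, adjusted p = 0.446), 0.03 in PA (0.10, adjusted p = 0.993) and 0.23 on average (0.07, adjusted p = 0.435). In PA, Ifih1 ranged from 22.5 to 31.6 CPM in Ctr cells (median 25.7) and from 19.5 to 38.4 CPM in αGlu cells (median 24.9), so the medians lay in the opposite order.

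Dhx58, whose product LGP2 lacks the signalling domains of MDA5, was the sensor with the largest αGlu difference. It ranged from 2.72 to 5.67 CPM in Ctr BSA (median 3.35) and from 3.31 to 10.5 CPM in αGlu BSA (median 4.76). The upper values were those of libraries S2 (8.99 CPM) and S6 (10.5 CPM), and the other 4 αGlu BSA libraries overlapped the Ctr BSA range. In PA it ranged from 1.36 to 4.36 CPM in Ctr cells (median 2.72) and from 2.55 to 7.30 CPM in αGlu cells (median 3.74). Averaged on the log2 scale, the difference was 0.64 (standard error 0.18, adjusted p = 0.219), and it was 0.64 in batch 1 and 0.63 in batch 2.

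Tlr3, the endosomal sensor, was between 13.5 and 24.3 CPM in Ctr BSA libraries (median 19.9) and between 18.7 and 27.2 CPM in αGlu BSA libraries (median 22.3). With PA it was between 14.3 and 23.1 CPM in Ctr cells (median 17.98) and between 14.02 and 22.3 CPM in αGlu cells (median 18.4). All 4 ranges overlapped. Its averaged αGlu difference was 0.10 on the log2 scale, with a 95% interval of -0.08 to 0.28.

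The adaptor Mavs and the factor Irf3, which are regulated mainly at the protein level, differed little between the ASOs. Mavs ranged from 14.95 to 19.7 CPM in Ctr BSA (median 18.9) and from 16.5 to 18.98 CPM in αGlu BSA (median 17.5), with an averaged log2 fold change of -0.04 and a 95% interval of -0.12 to 0.05. Irf3 ranged from 17.3 to 24.8 CPM in Ctr BSA (median 22.5) and from 20.7 to 29.9 CPM in αGlu BSA (median 22.6), with an averaged log2 fold change of 0.10 and an interval of -0.04 to 0.25. With PA, Mavs had medians of 18.9 CPM in Ctr cells (16.4 to 20.6) and 18.7 CPM in αGlu cells (16.1 to 19.4), and Irf3 of 23.7 CPM (14.2 to 26.6) and 23.6 CPM (21.96 to 26.2). The ranges of both genes overlapped in every comparison. Differences smaller than these bounds cannot be told from none with these libraries.

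Irf7, the interferon-inducible amplifier of the pathway, showed the largest difference of the 9 genes. It ranged from 2.02 to 5.14 CPM in Ctr BSA (median 3.47) and from 4.26 to 14.8 CPM in αGlu BSA (median 6.03). Libraries S2 and S6 both reached 14.8 CPM, and the other 4 αGlu BSA libraries lay between 4.26 and 6.13 CPM. The pooled ranges overlapped, while within both batches αGlu BSA libraries were above those of Ctr BSA, as for Ifih1. In PA, Irf7 ranged from 1.83 to 3.72 CPM in Ctr cells (median 2.21) and from 2.26 to 10.3 CPM in αGlu cells (median 3.36), with S4 (10.3 CPM) and S8 (8.95 CPM) highest. These PA groups overlapped in batch 1. The log2 difference was 1.26 in BSA (standard error 0.27, adjusted p = 0.282) and 0.95 in PA (0.27, adjusted p = 0.504).

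Irf9 and Stat2, the DNA-binding and transactivating parts of ISGF3, were also highest in libraries S2 and S6. Irf9 ranged from 19.8 to 34.01 CPM in Ctr BSA (median 23.8) and from 28.5 to 62.7 CPM in αGlu BSA (median 30.04), with S2 at 55.4 and S6 at 62.7 CPM. These groups overlapped in batch 1, where S10 had 29.2 CPM. In PA it ranged from 13.8 to 21.8 CPM in Ctr cells (median 17.7) and from 18.02 to 37.3 CPM in αGlu cells (median 21.9). Within each batch, every αGlu PA library lay above every Ctr PA library, which held for 0.188% of all genes.
Stat2 ranged from 33.97 to 53.9 CPM in Ctr BSA (median 43.8) and from 43.0 to 90.2 CPM in αGlu BSA (median 54.5), with S2 at 86.8 and S6 at 90.2 CPM. For Stat2 the groups in BSA did not overlap within either batch, which held for 0.163% of all genes. In PA, Stat2 ranged from 29.4 to 39.7 CPM in Ctr cells (median 32.6) and from 31.8 to 51.7 CPM in αGlu cells (median 37.7), and the groups overlapped in batch 1. The log2 fold changes in BSA and in PA were 0.57 and 0.43 for Irf9 (adjusted p = 0.446 and 0.748) and 0.49 and 0.24 for Stat2 (adjusted p = 0.282 and 0.993).

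Irf1, which is induced mainly by interferon-γ and inflammatory cytokines, was not called between the ASOs. It ranged from 44.3 to 66.2 CPM in Ctr BSA (median 50.7) and from 37.9 to 58.7 CPM in αGlu BSA (median 54.1), and the averaged log2 fold change was 0.01 with a 95% interval of -0.10 to 0.11.

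In BSA or PA taken separately, edgeR called none of the 9 genes between the ASOs, and 0% of all genes in either condition. At an unadjusted p below 0.05, 5 of the 9 were higher in αGlu cells in BSA (Ifih1, Dhx58, Irf7, Irf9 and Stat2; 1.14% of all genes) and 4 in PA (the same without Ifih1; 1.02%). DESeq2 called 2 of the 9 in BSA, Irf7 (adjusted p = 0.0119) and Stat2 (adjusted p = 0.0168), and 0 in PA. Over all genes it called 0.0503% in BSA and 0.188% in PA. Leaving out αGlu BSA library S10 gave 3 edgeR calls in BSA, namely Irf7, Irf9 and Stat2, among 0.0561% of all genes. Under the study's threshold Irf7 was called in BSA (0.145% of all genes raised) and none of the 9 in PA (0.17%).

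**Figure D2:**
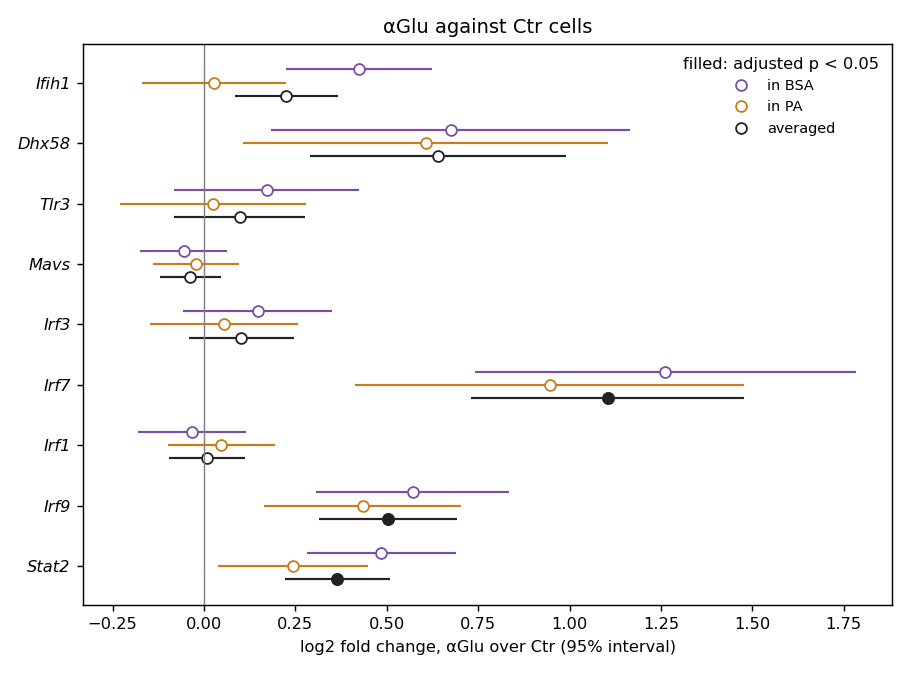
Log2 fold change of αGlu over Ctr cells (x axis) with its 95% interval for the 9 genes (y axis), in BSA, in PA and averaged; filled points have an adjusted p below 0.05. Irf7 (1.10), Irf9 (0.50) and Stat2 (0.36) are filled for the average, and Mavs and Irf1 lie near 0.

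PA lowered Irf1, Irf9 and Stat2 in Ctr cells, and Irf1, Irf7, Irf9 and Stat2 in αGlu cells. Those were 3 of 9 where 14.5% of all genes fell in Ctr cells, and 4 of 9 where 14.2% fell in αGlu cells. None of the 9 rose in either, where 15.5% and 14.4% of all genes did. The median over the 9 genes was -0.37 on the log2 scale in Ctr cells and -0.31 in αGlu cells, against 0.01 over all genes in both. With both ASOs averaged, 5 fell (the 4 genes above and Dhx58), where 22% of all genes fell, and none rose, where 23.4% did.

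Irf1 was the gene with the smallest adjusted p for PA in Ctr cells. It ranged from 38.8 to 41.1 CPM in Ctr PA (median 39.5), so all 6 Ctr PA libraries lay below all 6 Ctr BSA libraries. That was the case for 2.86% of all genes tested, and for no other of the 9 genes. The PA difference on the log2 scale was -0.39 in Ctr cells (standard error 0.08, adjusted p = 0.000388) and -0.31 in αGlu cells (0.07, adjusted p = 0.00323), where the PA range of 36.6 to 49.4 CPM (median 40.9) overlapped that of BSA. Within batch 1 the PA difference in Ctr cells was -0.59 and within batch 2 it was -0.20, and in batch 2 it was not called (adjusted p = 0.216). The difference between batches in the averaged PA response of Irf1 was 0.28 (standard error 0.09, adjusted p = 0.544). That test called 0 of the 9 and 0.0565% of all genes.

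Irf9 fell with PA by 0.54 on the log2 scale in Ctr cells (standard error 0.14, adjusted p = 0.00472) and by 0.67 in αGlu cells (0.14, adjusted p = 0.000568). Stat2 fell by 0.37 (0.10, adjusted p = 0.00938) and by 0.61 (0.10, adjusted p = 9.05e-05). Both genes were lower in every Ctr PA library than in every Ctr BSA library of the same batch, as were 6.25% of all genes. In Ctr cells the difference within batch 1 and within batch 2 was -0.56 and -0.52 for Irf9 (adjusted p = 0.163 and 0.00523) and -0.46 and -0.29 for Stat2 (0.0718 and 0.0736). In αGlu cells it was -0.71 and -0.63 for Irf9 and -0.79 and -0.42 for Stat2. Irf7 had a log2 fold change of -0.45 in Ctr cells (0.28, adjusted p = 0.229) and fell by 0.76 in αGlu cells (0.26, adjusted p = 0.0284). The Irf7 call in αGlu cells was lost without S2 and S6, at -0.44 (adjusted p = 0.308), and without any single one of S2, S6, S12, S20 or S24, at -0.58 to -0.73. Dhx58 passed the test only on the average, where it fell by 0.51 (0.18, adjusted p = 0.0222), and was not called without S2 and S6 (-0.33, adjusted p = 0.149).

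Ifih1 was the gene whose PA response differed most between the ASOs. Its log2 difference between PA and BSA was 0.17 in Ctr cells (standard error 0.10, adjusted p = 0.2205) and -0.23 in αGlu cells (0.10, adjusted p = 0.0939), a difference of -0.40 (0.14). The unadjusted p of that difference was 0.0106 and the adjusted p 0.999. No gene of the table passed the test of the difference (0%), and 332 had an unadjusted p below 0.05. For Irf7 the difference was -0.32 (0.38), with a 95% interval of -1.06 to 0.42. Tlr3 had log2 fold changes of -0.15 in Ctr and -0.29 in αGlu cells, and -0.22 on average (adjusted p = 0.0510). Mavs and Irf3 had values between -0.02 and 0.08 in the 2 ASOs, with intervals no wider than -0.22 to 0.28.

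**Figure D3:**
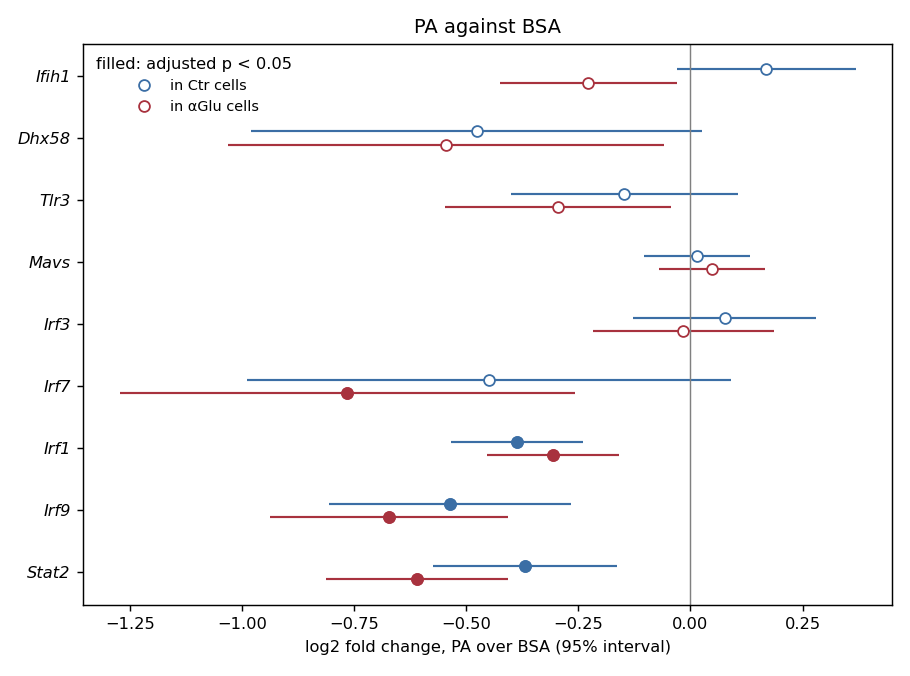
Log2 fold change of PA over BSA (x axis) with its 95% interval for the 9 genes (y axis), in Ctr and in αGlu cells; filled points have an adjusted p below 0.05. Irf1, Irf9 and Stat2 are filled and below 0 with both ASOs, Irf7 only with αGlu (the difference between ASOs was not called), and Ifih1 lies on opposite sides of 0.

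The batches differed in most of the 9 genes. Adjusted for group, 7 were lower in batch 2 than in batch 1 (25.4% of all genes were), Mavs was higher (26.1% of all genes were), and Tlr3 was not called. The log2 differences of batch 2 over batch 1 were -0.99 for Irf7 (adjusted p = 0.000101), -0.58 for Irf9, -0.55 for Dhx58, -0.47 for Stat2, -0.36 for Ifih1, -0.26 for Irf1 and -0.20 for Irf3, and 0.13 for Mavs. For Irf7, Irf9 and Stat2 the batch difference was about as large as the averaged αGlu difference. Ctr BSA libraries of batch 1 reached 5.14 CPM of Irf7, above the lowest αGlu BSA library of batch 2 at 4.26 CPM.

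Across the 24 libraries, with the mean of each batch removed, Irf9 and Stat2 were the most alike of all pairs among the 9 genes. Their log2 CPM had a Pearson r of 0.95, and each was the nearest of 15915 genes to the other. Dhx58 was nearest to Irf9 (0.88), followed by the interferon-stimulated genes Rtp4 (0.87) and Xaf1 (0.86). Irf7 was nearest to Oasl2 (0.91), Oas2 (0.89) and Apol9b (0.89). Ifih1 was nearest to Eif2ak2 (0.87), which encodes the double-stranded RNA-activated kinase PKR, and then among others to Ddx60 (0.83).
Irf9 and Stat2 had Oasl2 as their next nearest gene, at 0.93 and 0.88, and then Helz2 (0.89) for Irf9 and Adar (0.88) for Stat2. The other 4 genes were nearest to genes outside the pathway lists. These were Vasn (0.91), Nuak2 (0.90) and Igfbp7 (0.90) for Irf1, and Cnot1 (0.88), Trp53inp1 (0.86) and Vezf1 (0.85) for Tlr3. For Irf3 they were Arhgef16 (0.85), Nelfcd (0.83) and Ccl27a (0.82), and for Mavs Bend3 (0.71), Cdca3 (0.69) and Rps27 (0.68). Libraries of 1 group share their treatment, and what the libraries of 1 batch share is not given, so these values describe the 24 libraries only.

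**Figure D4:**
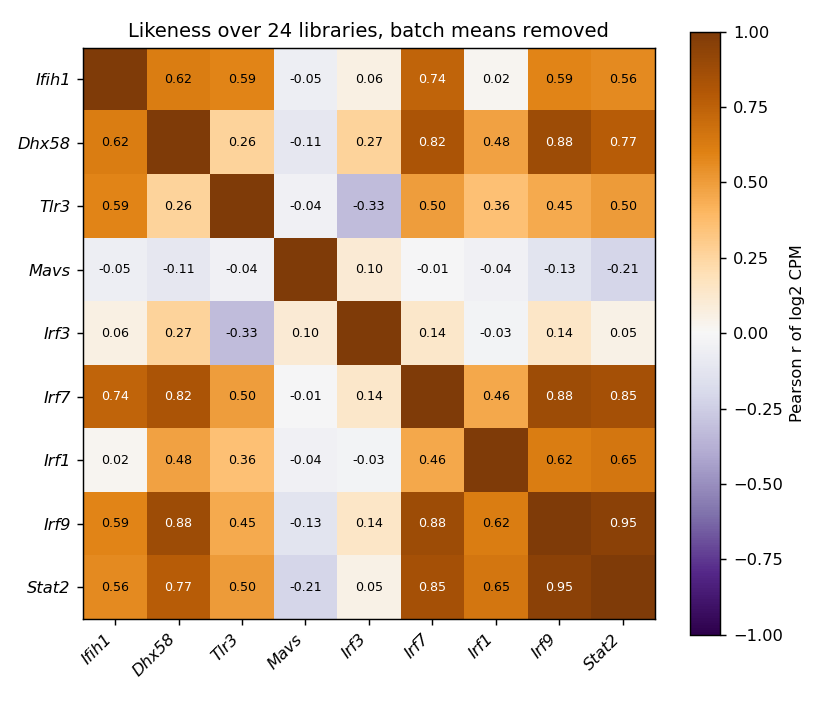
Pearson r of log2 CPM between the 9 genes over the 24 libraries after removal of each batch's mean; colour runs from -1 to 1. Dhx58, Irf7, Irf9 and Stat2 form the block of high values (0.77 to 0.95), Mavs has values of -0.21 to 0.10 with the other 8 and Irf3 of -0.33 to 0.27.

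The genes lie apart in the mouse genome (GRCm38, GENCODE M21), except that Ifih1 and Mavs share chromosome 2, Irf3 and Irf7 chromosome 7, and Dhx58 and Irf1 chromosome 11. Irf7 spans chr7:141262706-141266481 on the minus strand, Irf9 chr14:55603571-55610030 and Stat2 chr10:128270559-128292849, both on the plus strand. Irf7 shares 45 exon bases with Phrf1 on the other strand and Irf9 shares 123 with Rnf31 on the same strand, and Irf3 shares 88 with Bcl2l12 on the other strand. Antisense or overlapping genes of Dhx58, Tlr3 and Irf1 had at most 21 counts in all libraries. Over all libraries, Phrf1 had 59263 counts against 3228 for Irf7, Rnf31 32221 against 17355 for Irf9, and Bcl2l12 1246 against 14703 for Irf3. Whether the authors' counting used strand is not given in the sources used here, and strand cannot separate Irf9 from Rnf31. The counts of the overlapping genes are uncertain to that extent. Phrf1 and Rnf31 had averaged αGlu log2 differences of 0.02 and 0.09 (adjusted p = 1.00 for both). With PA, Phrf1 fell by 0.33, Rnf31 by 0.32 and Bcl2l12 by 0.88 on average, all on the log2 scale.

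Promoter windows from RefSeq (GRCm38.p6), 250 bases before to 50 after each annotated start, were given for 8 of the 9 genes. They were searched on both strands for the core of the interferon-stimulated response element that ISGF3 and IRFs bind, GAAANNGAAA, and for the γ-activated sequence of promoters that respond to interferon-γ, TTCNNNGAA. The core of the response element was found in 3.44% and the γ-activated sequence in 8.30% of all 32851 windows. By gene, the shares were 3.99% and 9.55% of 27025 genes. Among the 8 genes with a window, Ifih1 and Stat2 held the former and Irf1 the latter. The stretches are shown because they hold the only matches among these 8. Dhx58 had no window and was not searched. The matched bases are in capitals, with up to 10 bases either side, as read along the gene's own strand; in Stat2 the match is on the other strand.
Ifih1, chr2:62646206-62646233, minus strand, 32 bases after the start: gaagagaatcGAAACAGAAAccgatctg
Stat2, chr10:128270266-128270295, plus strand, 222 bases before the start: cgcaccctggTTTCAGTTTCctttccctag
Irf1, chr11:53769914-53769942, plus strand, 90 bases before the start: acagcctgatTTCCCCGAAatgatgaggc
A match is a run of letters and was not tested for binding. Of the 38 interferon-stimulated effector genes with a window, 18 held the response element core (47.4%), and none of the 12 receptor, JAK and STAT genes did.

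The genes around the 9 in the pathway were read from lists of its other steps. Trim25, a ubiquitin ligase that activates RIG-I, and Adar, which edits double-stranded RNA, were the 2 of 22 tested sensor and adaptor genes that rose in αGlu cells on average. Their log2 differences were 0.19 (standard error 0.04, adjusted p = 0.0184) and 0.19 (0.04, adjusted p = 0.0455), and the median of the list was 0.06. Eif2ak2 had the next smallest p, with 0.30 (0.07, adjusted p = 0.0519). None of the 18 kinases and scaffolds that lead to IRF3 and IRF7 passed the test (median 0.01), nor of the 14 receptor, JAK and STAT genes (median 0.00), the 7 other interferon regulatory factors (0.02) or the 14 negative regulators (0.02). Usp18, which restrains the interferon receptor, had a log2 difference of 0.30 (0.07, adjusted p = 0.0546).

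Among 45 interferon-stimulated effector genes, all 45 had a fitted log2 difference above 0 between αGlu and Ctr cells in BSA, with a median of 0.43. In PA 42 of 45 had a difference above 0, with a median of 0.19, and on average 44 did, with a median of 0.29. Phf11b, a gene of low level named after its values were seen, had a fitted difference above 0 in BSA but a slightly lower plain mean in αGlu BSA (0.503 CPM) than in Ctr BSA (0.515 CPM). The same medians over all genes were 0.00. In αGlu BSA the highest value was in S2 or S6 for all of the 45 but Isg20, Mx1 and Phf11b, which were highest in S18. In αGlu PA it was in S4 or S8 for all but Isg20 (S16) and Mx1 (S20). The 45 genes are thus not 45 separate observations, and how far the tally rests on these libraries was not tested. On average 3 of the 45 rose. Oas2, which makes the activator of RNase L, had a log2 difference of 1.81 (standard error 0.35, adjusted p = 0.0178), Ifi27 one of 0.61 (0.12, adjusted p = 0.0221) and Irgm2, an immunity-related GTPase, one of 0.48 (0.08, adjusted p = 0.0151). Together with Irf7, Irf9, Stat2, Trim25 and Adar they made up 8 of the 9 genes that rose in the table. The 9th was Apol9b, which is in none of the lists, with 3.35 (0.61, adjusted p = 0.0151). It was named after its value was seen. The 9 genes and the lists were chosen with earlier results of these data known, so these tallies are descriptive and not a test of the pathway. Mx1 and Ifit2, both classical interferon-stimulated genes, had averaged differences of 0.01 and -0.05, and Ifit2 was the 1 gene of the 45 below 0.

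**Figure D5:**
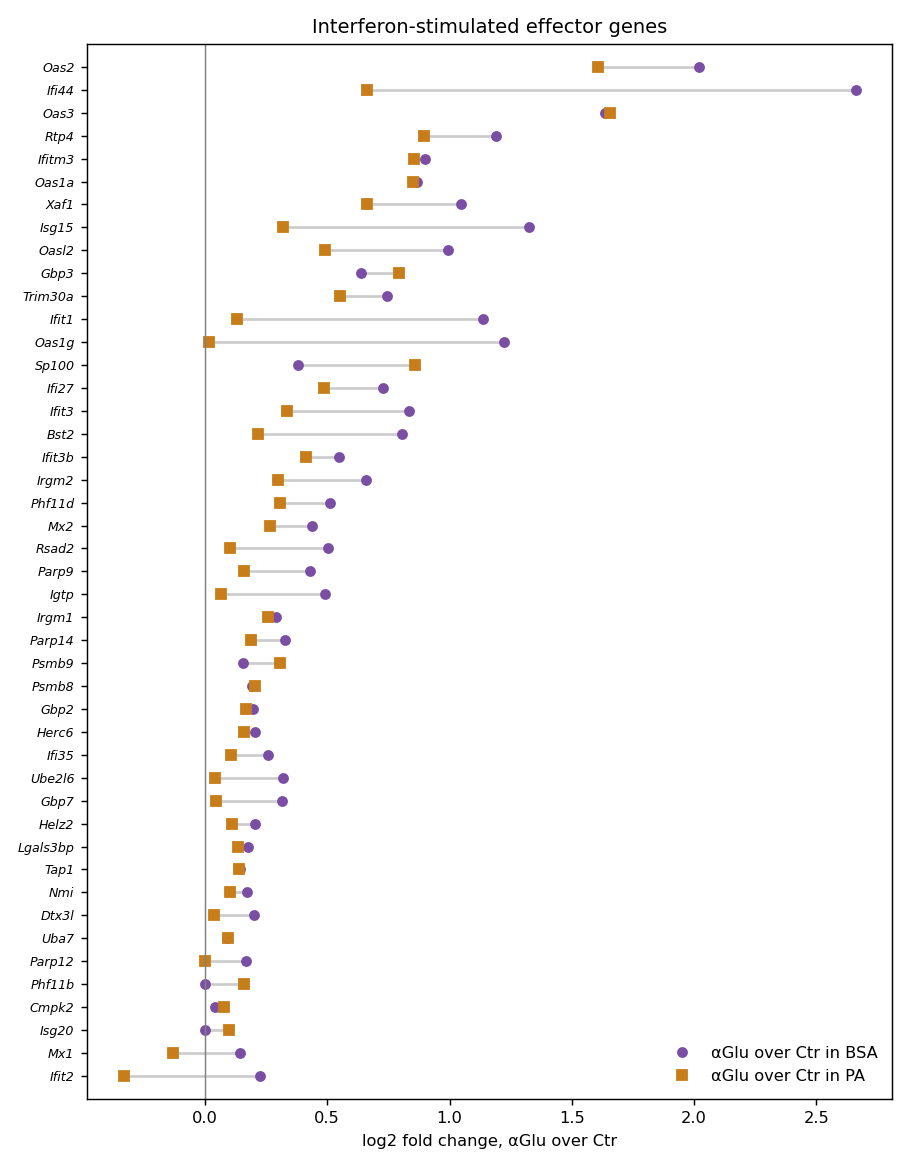
Log2 fold change of αGlu over Ctr (x axis) in BSA (circles) and in PA (squares) for the 45 interferon-stimulated effector genes (y axis), ordered by their average. All 45 circles and 42 squares lie above 0, and 36 of the 45 circles lie to the right of their square.

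No interferon ligand reached the level needed for the test. Of 21 ligand genes, 14 had no count in any library, among them Ifnb1, Ifng, Ifnl2 and Ifnl3, and Ifnab had the most, with 78 counts over the 24 libraries. A count of 0 over all libraries allows up to 3 counts in all, so the transcript of Ifnb1 was not detectable at this depth at the time of harvest. Expression before harvest was not measured.

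With PA, 22 of the 45 effector genes fell and 3 rose on average (median -0.25), where 22% of all genes fell and 23.4% rose. Irgm1 fell by 0.43 (standard error 0.07, adjusted p = 3.32e-05), Ifit2 fell by 1.203 (0.21, adjusted p = 5.02e-05) and Phf11d fell by 1.02 (0.18, adjusted p = 7.18e-05). Lgals3bp, Rsad2 and Isg20 rose, by 0.51, 0.49 and 0.28. Of the 22 sensors and adaptors 6 fell and 4 rose, shares near those of all genes. Sting1, the adaptor of DNA sensing, fell by 1.78 and Adar by 0.23, while Ticam1, the adaptor of TLR3, rose by 0.25.
Of the 18 kinases and scaffolds 4 fell and 5 rose, again near the shares of all genes, with Irak1 up by 0.30, Azi2 up by 0.16 and Traf2 down (-0.23). The receptor subunits split, with Ifnar1 down (-0.26, adjusted p = 2.71e-06) and Ifnar2 up (0.33, adjusted p = 0.000558), and Stat3 was down (-0.19). Other lowered genes were the regulatory factors Irf2 (-0.24), Irf5 (-1.65) and Irf2bpl (-0.17) and the negative regulators Trim21 (-0.35) and Ptpn1 (-0.12), whereas Rnaseh2b was raised (0.30).

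Marker genes of other islet cell types moved with the same comparisons. In bulk libraries, fewer cells of a type and less RNA per cell cannot be told apart. The 17 tested macrophage markers had a median log2 difference of -0.99 between αGlu and Ctr cells in BSA and of 0.76 in PA, with 0 called in each. The summed level of the 20 listed genes was 94.7 to 478 CPM in Ctr cells and 100 to 200 CPM in αGlu cells in BSA, and 89.9 to 137 CPM and 84.9 to 158 CPM in PA. In libraries S2 and S6, the highest in Irf7, it was 100 and 108 CPM. It was also 100 CPM in S10, the third αGlu BSA library of batch 1, which had 6.13 CPM of Irf7 against 14.8 in the other two, and 188 to 200 CPM in the 3 of batch 2. The sum is mostly C1qa, at medians of 75.7 to 91.0 CPM by group, whereas C1qb had medians of 0.21 to 2.05 CPM. With PA, 12 of the 17 macrophage markers fell in Ctr cells (median -2.20) and 1 of 17 in αGlu cells (median -0.39), where 14.5% and 14.2% of all genes fell. The difference between the 2 PA responses had a median of 1.85 and was called for 0 of the 17, as for 0% of all genes. A difference between the ASOs in this PA response was therefore not shown.

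Glia and Schwann cell markers were lower in αGlu cells, with 6 of 9 called on average and a median of -2.73. Their summed level over 10 genes was 22.5 to 147 CPM in Ctr cells and 20.01 to 65.96 CPM in αGlu cells in BSA, and 44.3 to 92.9 CPM and 20.3 to 56.4 CPM in PA. Fibroblast and stellate markers fell with PA, 9 of 11 in Ctr and 7 of 11 in αGlu cells, with sums of 170 to 640, 15.5 to 83.8, 111 to 1291 and 14.6 to 192 CPM in the Ctr groups (BSA, then PA) and the αGlu groups (BSA, then PA). Acinar markers fell in PA as well, 9 of 11 and 6 of 11. All 11 were also lower in batch 2, with sums of 3113 to 22283 CPM in the 12 libraries of batch 1 and 225 to 610 CPM in those of batch 2. Libraries S2 and S6 had acinar sums of 5409 and 13807 CPM, within the batch 1 range of Ctr BSA or below it. Endothelial markers, 14 listed, summed to 89.7 CPM in S2, 108 in S6 and 26.4 in S10. In αGlu PA of batch 1 they summed to 85.0 CPM in S4, 84.5 in S8 and 32.3 in S12. Irf7 in S4, S8 and S12 was 10.3, 8.95 and 2.47 CPM. Endothelial sums in Ctr BSA of batch 1 were 107 CPM in S1, 87.8 in S5 and 32.4 in S9. Fibroblast and stellate sums were 351 CPM in S2, 486 in S6 and 118 in S10, but 1291 in S18 of batch 2. The part of these cells in the results for the 9 genes was not tested.

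Siglech, which defines plasmacytoid dendritic cells, the main interferon producers of blood, had no count in any library. The list of 8 such markers summed to 87.2 to 413 CPM in Ctr cells and 91.3 to 326 CPM in αGlu cells in BSA, and to 83.1 to 223 CPM and 81.4 to 212 CPM in PA, most of it Tcf4 and Klk1, which other pancreatic cells express. Lymphocyte markers, 14 listed, summed to 1.56 to 9.33 CPM over the 24 libraries. The 10 β-cell markers summed to between 84084 and 152140 CPM in all libraries, and 0 of 10 were called between the ASOs in BSA, in PA or on average.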

How the data were processed

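Polyadenylated RNA of 24 libraries was sequenced after stranded Illumina mRNA library preparation. Per the methods, the authors processed the reads in version 5.1 of QIAGEN's RNA-seq Analysis Portal, and the submitters' processing notes name GRCm38. For aligner, annotation release and filters: not given in the sources used here. All tests used the deposited counts per gene. The deposited TPM served only to compare genes. The table's 48 RPKM and CPM columns were not used, empty cells were read as 0, and 1 line without a gene held 0 counts. The libraries held 18214719 to 35001979 counts.

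Genes were filtered with filterByExpr (minimum count 10), scaled by trimmed mean of M-values and fitted over all 24 libraries with group and batch terms by the quasi-likelihood test of edgeR 4.0.16 (R 4.3.3, limma 3.58.1), with Benjamini-Hochberg adjustment over 15916 genes and a threshold of 0.05. Intervals are 95%. The biological coefficient of variation was 15.4%. The study's legend gives 6 independent experiments, and the sample records do not say which libraries belong to each. If the libraries of a group were not separate preparations, p-values measure only the spread between libraries. CPM in the text are recomputed from the counts. Named genes are the 9 genes, list genes called between the ASOs, up to 3 genes of smallest p per list in the averages, and the 3 genes with the highest r to each of the 9 (log2 CPM, prior count 2). The values of 1 gene that met this rule are not reported here. The 9 genes and all lists were chosen with earlier results of these data known. Alternatives were other scalings, filters and batch handling, 2 surrogate variables (sva 3.50.0), DESeq2 1.42.0, the study's fold threshold and each library left out. Scripts were tested on simulated data. Promoters came from RefSeq (GRCm38.p6, 8 of the 9 genes matched) and positions from GENCODE M21.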

Additional observations from a re-analysis of the deposited data

Results flagged for a closer look

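Of 36 sets of 6 libraries (the 9 genes in 4 groups), 3 held a library whose gap to its nearest neighbour exceeded the 95% critical value of Dixon's test. Chance gives such a value in about 1 in 20 sets, or 1.8 of 36. Dhx58 in αGlu PA library S4 stood above the rest of its group at 7.30 CPM. Mavs in Ctr BSA library S9 stood below its group at 14.95 CPM. Irf3 in Ctr PA library S23 stood below its group at 14.2 CPM.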

How the results depend on the processing

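No paired analysis was run. The library numbers S1 to S24 repeat the order Ctr BSA, αGlu BSA, Ctr PA, αGlu PA, which was not used to pair libraries. The study states that the groups of a mouse islet replicate came from the same animal, but the sample records do not say which libraries belong together, so all p-values come from fits without that block and how it would move the calls was not tested. Of 660 values of the 9 genes under alternatives other than leaving out a library, 600 kept direction and side of the threshold, 33 lost and 10 gained a call and 17 reversed; leaving out each library gave 1562, 10, 13 and 23 of 1608. The 13 values that reversed somewhere were not called as reported. Their causes were not tested.

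The counts below lack the share of all genes called, except where given above. A general change in calls cannot be told from one in these genes. The number of the 9 genes called changed as follows. Under the study's fold threshold it was 0 for PA in Ctr cells (3 as reported), 0 for PA in αGlu cells (4), 0 for averaged PA (5), 1 for αGlu in BSA (0) and 1 for averaged αGlu (3). DESeq2 gave 2 for αGlu in BSA. Without the batch term, and equally in batch 1 alone, it was 1 for PA in Ctr cells, 2 for PA in αGlu cells, 3 for averaged PA and 0 for averaged αGlu. Batch 2 alone gave 1 for PA in Ctr cells and 0 for averaged αGlu. Without S2 and S6 it was 0 for averaged αGlu and 3 for averaged PA. Leaving out each library gave 4 to 6 for averaged PA, 3 to 3 for PA in Ctr cells, 3 to 6 for PA in αGlu cells, 2 to 3 for averaged αGlu, 0 to 3 for αGlu in BSA, 0 to 0 for αGlu in PA and for the tests of a difference, and 7 to 8 for batch.

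Reversed log2 values were, for Mavs, -0.0060 (upper quartile), -0.044 (batch 1) and -0.0066 (surrogate variables) for PA in Ctr cells, and 0.022 (batch 1) for αGlu in PA. For Irf3 they were -0.036 (batch 1) for αGlu in PA, -0.012 (batch 2) for PA in Ctr cells, and 0.085 (batch 2) and 0.070 (surrogate variables) for PA in αGlu cells. For Ifih1 they were 0.0092 (batch 1) and 0.042 (without S2 and S6) for averaged PA, and -0.060 (batch 2) for αGlu in PA. For Tlr3 they were -0.089 for αGlu in PA and -0.0015 for averaged αGlu, both in batch 2. For Irf1 they were -0.028 (batch 2) for αGlu in PA, and -0.018 (batch 2) and -0.012 (without S2 and S6) for averaged αGlu. For Irf7 the difference of PA responses was 0.011 without S2 and S6. With each library left out, values that reversed ranged for αGlu in PA from -0.059 to 0.079 (Ifih1), -0.041 to 0.098 (Irf3), -0.050 to 0.0024 (Mavs) and -0.028 to 0.13 (Tlr3). They ranged from -0.066 to 0.021 for Irf1 and αGlu in BSA, -0.0091 to 0.035 for Irf1 and averaged αGlu, -0.046 to 0.037 for Irf3 and PA in αGlu cells, and -0.028 to 0.054 for Mavs and PA in Ctr cells. Counts of 38 to 421 per library limit Dhx58 and Irf7.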
